A study of Mus musculus with 2 samples.

Results

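The genes described here are the cyclins and cyclin-dependent kinases (CDKs) of mouse spermatocytes, leaving out those of the meiotic divisions. They were the protein-coding genes of the deposited table whose symbol is a lettered cyclin (Ccna to Ccny) or a numbered Cdk, without Ccna1, Ccnb1, Ccnb2, Ccnb3, Cdk1 and Cdk2. The rule found 37 of 53801 genes, 20 cyclins and 17 CDKs. RNA came from primary spermatocytes sorted from testis, the germ cells that carry out meiosis. One library was labelled SMC1beta wild type (s_1_WT_4N), and 1 was labelled SMC1beta knockout overexpressing SMC1alpha (s_1_1bko1a_4N). SMC1beta is the meiosis-specific SMC1 subunit of cohesin, the ring that holds sister chromatids together, and SMC1alpha is its widely expressed counterpart. Age, strain, the promoter that drives SMC1alpha, the number of animals and the meaning of "4N" are not stated in the sources used here. Loss of SMC1beta and gain of SMC1alpha came in the same library and cannot be told apart.

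Cyclins are regulatory subunits that switch on CDKs, a family of serine/threonine kinases. One branch drives the cell cycle: D-type cyclins with CDK4 or CDK6 act on the retinoblastoma protein in G1, and E-type and A-type cyclins act on entry into and passage through S phase. Another branch works in transcription, where CDK7, CDK8, CDK9, CDK12 and CDK13 with their cyclins phosphorylate RNA polymerase II or its regulators. A further group of atypical members, among them the CDKs that bind cyclin Y, acts outside the classical cell cycle. In the testis, spermatogonia divide by mitosis and copy their DNA a last time before meiotic prophase begins.

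Values are TPM, each gene's share of all transcripts corrected for its length, so levels of different genes can be set side by side. Each genotype had 1 library. Differences therefore have no replicate check and no p-value, and "higher" and "lower" compare this pair of libraries alone. The sources used here state a minimum number of reads, the same for both libraries. Without read counts in the table, the depth reached and the reads behind each value are unknown. The labels' protocols give single-end reads of 75 bases. Log2 ratios divide the labelled knockout's (TPM + 1) by that of wild type, and a gene counts as higher or lower at 2-fold or more on that scale. Folds named as TPM folds have no pseudocount.

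The labels were checked first on the genes they name. Smc1b measured 76.1 TPM in wild type against 62.9 TPM in the library labelled knockout, and Smc1a 0.51 against 28.8 TPM. Gene-level TPM does not resolve which exons of Smc1b were read, so the second library goes by its label, as the labelled knockout. Spermatocyte markers were abundant in both libraries, with 18 genes summing to 3232 and 3489 TPM (7 of 18 higher and 1 lower). Among markers of other testis cells, the 15 of spermatogonia summed to 41.0 and 131 TPM (11 of 15 higher), 16 Sertoli markers to 97.6 and 577 TPM (12 of the 15 at 1 TPM or more higher), 8 Leydig markers to 63.8 and 1665 TPM (8 of 8 higher) and 9 macrophage markers to 4.20 and 30.3 TPM (6 of the 7 at 1 TPM or more higher). In wild type, the markers Rhox13, C1qa and Fcer1g were each listed at 0. The 15 spermatid markers went the other way, at 3036 and 120 TPM (15 of 15 lower). In sorted bulk RNA, fewer cells of a type and less RNA per cell cannot be told apart, and the part these other cell types have in the values below was not tested.

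Of the 37 genes, 36 reached 1 TPM in 1 library or both. Of these 36, 10 (27.8%) were higher in the labelled knockout and 4 (11.1%) were lower, while 22 stayed within 2-fold. Among 15000 protein-coding genes passing the same filter, 18.7% were higher and 16.5% lower. The median log2 ratio of the 36 was 0.11, against -0.05 for all protein-coding genes. By class, the 20 cyclins had a median of 0.64, with 8 (40.0%) higher and 1 (5.00%) lower. For the 16 kinases that passed the filter the median was -0.26, with 2 (12.5%) higher and 3 (18.75%) lower. The cyclins were less abundant in wild type, with a median of 12.3 TPM against 30.8 TPM for these kinases. Of all protein-coding genes, 33.1% of those under 10 TPM in wild type were higher, against 3.91% of the rest. The 5 higher genes lost with a pseudocount of 5 TPM (Ccnd1, Ccnd2, Ccng2, Ccno and Ccnt2) were all cyclins. Of the 10 higher genes, 3 (Ccnd1, Ccnd2 and Ccno) were below 1 TPM in wild type and passed the filter through the labelled knockout alone.

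**Figure D1:**
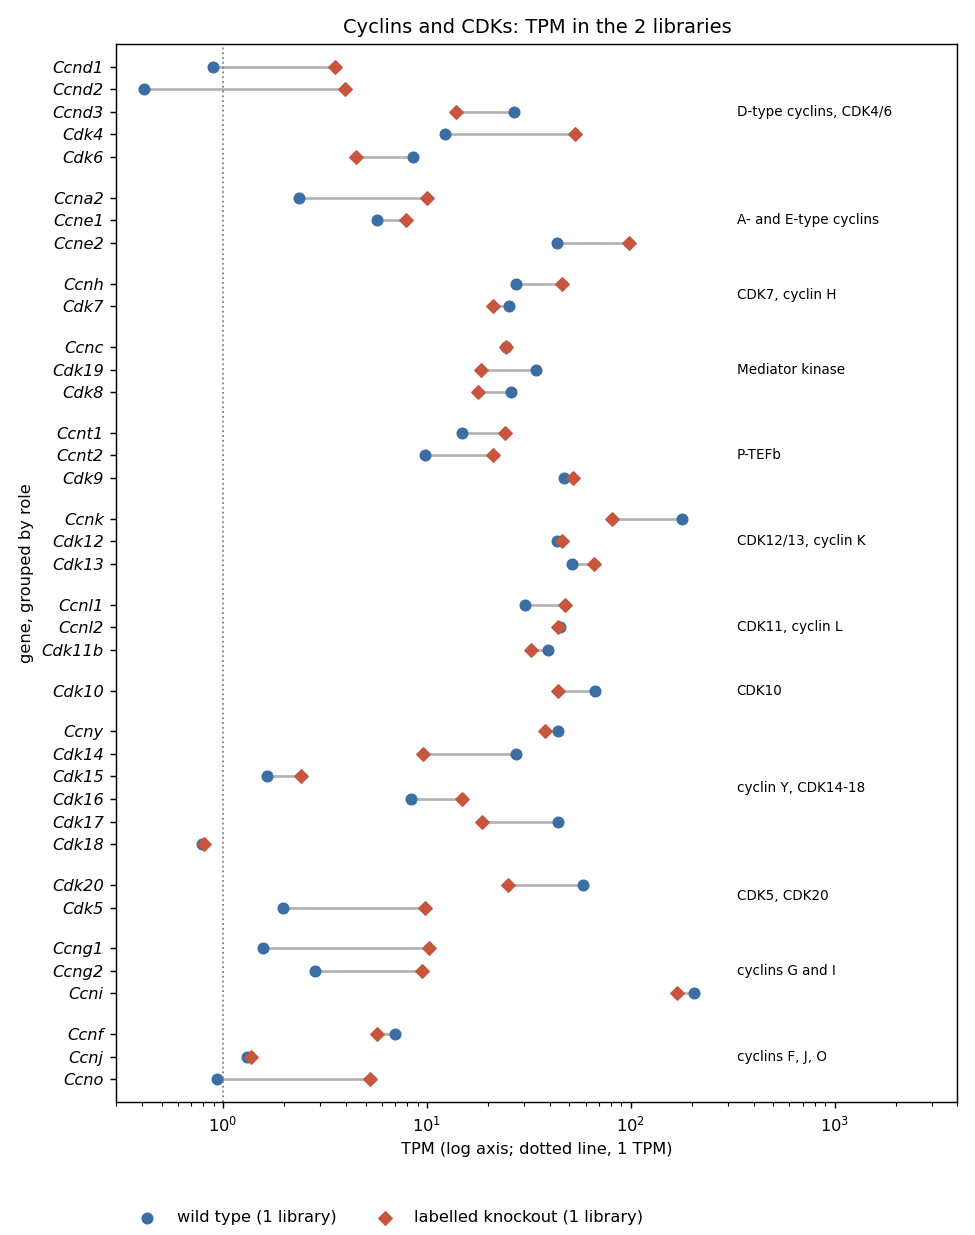
TPM of the 37 genes (log axis) in the wild-type library (circles) and the labelled knockout (diamonds), grouped by role, with 1 library per genotype and the dotted line at 1 TPM. The long lines toward higher values in the labelled knockout are those of Ccnd2, Ccng1, Ccno, Cdk5, Cdk4 and Ccna2, and the highest gene in both libraries is Ccni at 205 and 168 TPM.

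The promoters of 3 higher genes and 1 lower gene are shown here as the sequences beside the values in the next paragraphs. They are not in every case the members furthest from equal levels (Cdk5, Ccnd2, Ccna2 and Cdk17 are not shown). RefSeq promoter sequences (build GRCm38.p6) were matched for 28 of the 37 genes by symbol. Shown are the bases before the RefSeq start that lie outside annotated exons, for the higher and lower genes with at least 100 such bases, taken in order of their ratio up to 3 in each direction. Cdk4 is at chr10:127063285-127063533 (plus strand), Ccng1 at chr11:40755312-40755536 (minus strand), Ccno at chr13:112987552-112987801 (plus strand) and Cdk14 at chr5:5380252-5380501 (minus strand), which lies within the span the table gives for Cdk14. Capitals mark matches on either strand to the E2F letters GCGGGAA and their variant GCGCGAA, to TTTGAA of the CHR element found in cell cycle genes, to the CCAAT box, to the MYB letters AACNGT, to the E-box CACGTG and to GTTGCC, which is part of the X-box bound by RFX factors. No match overlapped another in these 4 sequences.
Cdk4: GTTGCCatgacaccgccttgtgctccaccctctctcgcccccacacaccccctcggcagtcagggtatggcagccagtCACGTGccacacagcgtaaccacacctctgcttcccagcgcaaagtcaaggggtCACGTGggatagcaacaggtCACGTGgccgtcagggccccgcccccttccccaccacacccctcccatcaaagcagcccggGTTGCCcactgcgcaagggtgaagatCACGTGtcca
Ccng1: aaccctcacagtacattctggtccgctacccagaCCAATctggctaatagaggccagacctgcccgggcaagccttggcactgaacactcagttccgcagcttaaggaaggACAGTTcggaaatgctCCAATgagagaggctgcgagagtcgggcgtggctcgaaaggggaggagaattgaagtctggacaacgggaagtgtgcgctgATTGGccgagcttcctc
Ccno: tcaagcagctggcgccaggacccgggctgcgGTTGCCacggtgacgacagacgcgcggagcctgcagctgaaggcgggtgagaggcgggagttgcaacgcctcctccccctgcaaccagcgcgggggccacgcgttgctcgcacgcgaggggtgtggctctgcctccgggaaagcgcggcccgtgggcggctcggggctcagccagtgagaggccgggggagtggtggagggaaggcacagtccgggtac
Cdk14: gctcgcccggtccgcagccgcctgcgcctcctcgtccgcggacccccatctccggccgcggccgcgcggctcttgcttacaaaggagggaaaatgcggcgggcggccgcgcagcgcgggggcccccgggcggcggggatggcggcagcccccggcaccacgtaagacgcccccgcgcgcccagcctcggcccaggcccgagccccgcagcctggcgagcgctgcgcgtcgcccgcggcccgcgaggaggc

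The Cdk4 promoter held 4 copies of CACGTG, starting 172, 118, 98 and 11 bases before the RefSeq start. Of 32851 RefSeq promoters, 6.02% held at least 1 copy in their 250 bases and 7 promoters held at least 4. Among the 28 matched genes, 6 held CACGTG (Cdk4, Cdk6, Cdk7, Cdk8, Cdk18 and Cdk20), and these include genes higher, lower and within 2-fold. GTTGCC was found in 3 of the 28 (Cdk4, Ccno and Cdk20) and in 10.4% of all promoters. CCAAT was found in 11 of 28 and 33.8% of all promoters, AACNGT in 5 of 28 and 22.3%, TTTGAA in 3 of 28 and 15.99%, and the E2F letters in 0 of 28 and 5.00%. Over 14518 promoters of protein-coding genes at 1 TPM or more, CACGTG was found in 7.67%, GTTGCC in 11.2% and CCAAT in 35.4%. AACNGT was found there in 19.1%, TTTGAA in 11.9% and the E2F letters in 8.22%. CCAAT occurred 3 times in the Ccng1 sequence and AACNGT once, and the Cdk14 sequence held none of the searched letters. CACGTG and GTTGCC were added to the search after the sequences were read. A match is a description of letters and not of binding.

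In the G1 module, the balance between paralogous kinases and between paralogous cyclins differed between the libraries. Cdk4 (mm10 chromosome 10, 127063534 to 127067920) stood at 12.3 TPM in wild type against 53.5 TPM in the labelled knockout, a TPM fold of 4.36 and a log2 ratio of 2.04, above that of 95.5% of protein-coding genes. Cdk6, which binds the same cyclins, stood at 8.57 and 4.51 TPM. Within a library, Cdk4 exceeded Cdk6 by 1.43-fold in wild type and by 11.9-fold in the labelled knockout. Rescaling a library cancels in any such ratio, so this is no sign of stability. Leydig and Sertoli markers were also higher in the labelled knockout, and their part in these ratios was not tested. Exons of Cdk4 overlap those of Tspan31 on the opposite strand (3.15 and 8.89 TPM), and whether reads were separated by strand was not tested.

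Among the D-type cyclins, Ccnd3 was the most abundant in both libraries. Ccnd3 stood at 26.8 TPM in wild type against 13.8 TPM in the labelled knockout, 95.4% and 64.7% of the summed D-type cyclin TPM. Ccnd2 (chromosome 6, 127125162 to 127152193) stood at 0.411 and 3.98 TPM, a TPM fold of 9.68, and Ccnd1 (chromosome 7, 144929931 to 144939925) at 0.891 and 3.55 TPM, a TPM fold of 3.99. The 3 together summed to 28.1 and 21.3 TPM, and Cdk4 with Cdk6 to 20.8 and 58.0 TPM. The D-type cyclins thus exceeded their kinases by 1.35-fold in wild type and stood at 0.368 of them in the labelled knockout. Ccnd1 and Ccnd2 were at most 4 TPM in either library, where the pseudocount weighs most.

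Of the S-phase cyclins, Ccne2 and Ccna2 were higher in the labelled knockout and Ccne1 stayed within 2-fold. Ccne2 (chromosome 4, 11191351 to 11204779), an E-type activator of CDK2, stood at 43.3 TPM in wild type against 98.2 TPM in the labelled knockout, for a log2 ratio of 1.16. It was the 11th most abundant of the 37 genes in wild type but 2nd in the labelled knockout. Its paralogue Ccne1 stood at 5.68 and 7.88 TPM, so Ccne2 made up 88.4% and 92.6% of E-type cyclin TPM. Exons of Ccne2 overlap those of Ints8 on the opposite strand (13.4 and 35.3 TPM), and whether reads were separated by strand was not tested. Ccna2 (chromosome 3, 36564865 to 36572150), the A-type cyclin of dividing cells, stood at 2.35 and 10.003 TPM, for a log2 ratio of 1.72. The germ cell paralogue Ccna1, one of the 6 genes the rule leaves out, stood at 186 and 38.0 TPM, so Ccna2 went from 1.25% of A-type cyclin TPM in wild type to 20.8% in the labelled knockout. Over the 8 genes of the G1 and S phase lists, 5 (62.5%) were higher and 0 lower, beside 18.7% and 16.5% of all protein-coding genes, with a median log2 ratio of 1.21. These lists were drawn up with earlier results of these data known, so the shares describe the genes and are not a test. The 8 genes had a wild-type median of 7.12 TPM, and of all protein-coding genes under 10 TPM in wild type 33.1% were higher. Ccnd1 and Ccnd2 passed the filter through the labelled knockout alone. With a pseudocount of 5 TPM, 3 of the 5 were higher, as Ccnd1 and Ccnd2 no longer reached 2-fold, beside 6.87% of all protein-coding genes. Spermatogonia markers (41.0 against 131 TPM), Sertoli markers (97.6 against 577 TPM) and Leydig markers (63.8 against 1665 TPM) moved with the higher genes of these lists. The part of these cell types in the values was not tested.

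As deposited, most genes of the transcription branch stayed within 2-fold, and the exceptions were cyclin K and cyclin T2. Of the 15 members in these lists, 13 stayed within 2-fold, and their median log2 ratio was 0.0022. Of the 15, 1 (6.67%) was higher and 1 (6.67%) lower, beside 18.7% and 16.5% of all protein-coding genes. These counts and the median depend on the scaling. Rescaled without mitochondrial and the 20 most abundant genes, Ccnh (1.13), Ccnt1 (1.07) and Ccnl1 (1.04) were also higher, and Ccnk was not lower. Ccnk (chromosome 12, 108179579 to 108203359), the cyclin of CDK12 and CDK13, stood at 178 TPM in wild type against 81.3 TPM in the labelled knockout, for a log2 ratio of -1.12 that shrank to between -0.83 and -0.72 under the 3 rescalings. Its kinases stayed within 2-fold as deposited: Cdk12 stood at 43.4 and 46.1 TPM and Cdk13 at 51.7 and 66.3 TPM. Cyclin K transcripts were therefore 1.87-fold those of Cdk12 and Cdk13 combined in wild type against 0.723 of them in the labelled knockout.

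P-TEFb is the CDK9 and cyclin T kinase that releases paused RNA polymerase II. Ccnt2 stood at 9.83 TPM in wild type against 21.2 TPM in the labelled knockout, for a log2 ratio of 1.03, just past 2-fold. Ccnt1 stood at 14.9 and 24.1 TPM and Cdk9 at 47.2 and 52.2 TPM. The summed cyclin T transcripts were 0.523 of Cdk9 in wild type against 0.867 in the labelled knockout. The proteins that hold P-TEFb inactive on the 7SK RNA were mixed at less than 2-fold, with Larp7 at 247 and 136 TPM, Mepce at 107 and 53.9 TPM, Hexim1 at 8.94 and 11.5 TPM and Hexim2 at 24.6 and 15.0 TPM.

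The CDK-activating kinase joins CDK7, cyclin H and MAT1 (Mnat1) and is also part of the transcription factor TFIIH. In wild type the transcripts of the 3 subunits stood close together, with Ccnh at 27.4, Cdk7 at 25.2 and Mnat1 at 25.0 TPM. In the labelled knockout Ccnh stood at 45.9 TPM while Cdk7 stood at 21.2 and Mnat1 at 18.2 TPM, so the ratio of Ccnh to Cdk7 went from 1.09 to 2.17. The ratio of Cdk7 to Mnat1 was 1.01 and 1.16. In the kinase module of Mediator, the bridge between transcription factors and the polymerase, Ccnc stood at 24.4 TPM in each library. Its alternative kinases Cdk8 and Cdk19 stood at 25.7 and 17.8 TPM and at 34.2 and 18.5 TPM, together 2.46-fold and 1.49-fold the level of Ccnc. CDK11 and the L-type cyclins act with the splicing machinery. Cdk11b stood at 39.5 and 32.3 TPM, Ccnl1 at 30.3 and 47.3 TPM and Ccnl2 at 45.0 and 44.1 TPM, so Ccnl2 exceeded Ccnl1 in wild type and not in the labelled knockout. Cdk10 stood at 67.0 and 44.1 TPM.

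**Figure D2:**
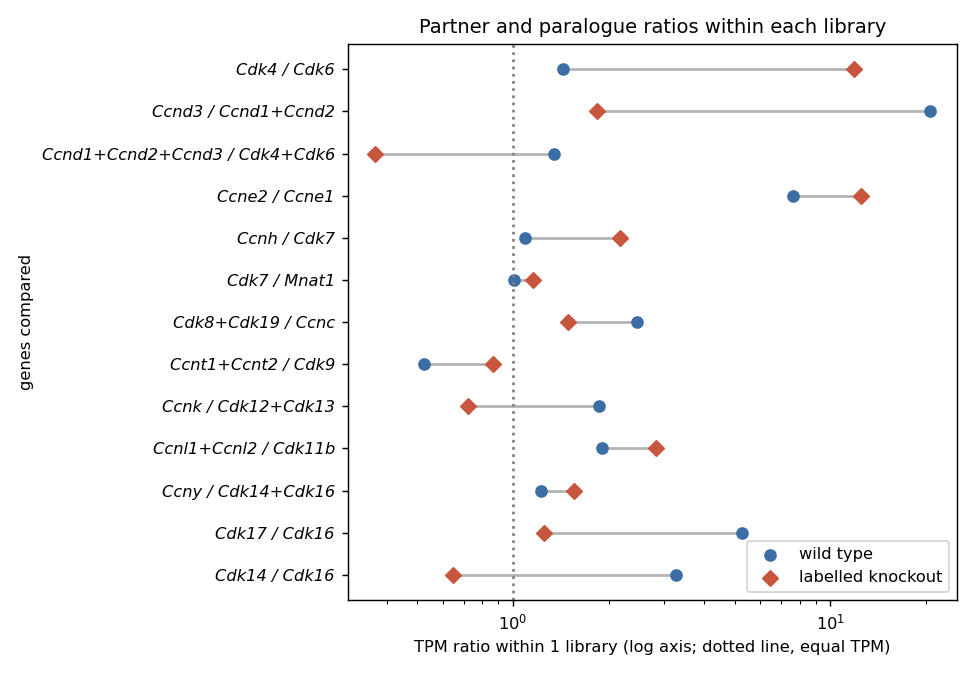
TPM ratios between partners or paralogues within each library (log axis, dotted line at equal TPM), with circles for wild type and diamonds for the labelled knockout. Cdk4 over Cdk6 moved from 1.43 to 11.9, Ccnd3 over Ccnd1 and Ccnd2 from 20.6 to 1.83, and Ccnk over Cdk12 and Cdk13 from 1.87 to 0.723, while Cdk7 over Mnat1 stayed near 1.

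The kinases related to CDK14 to CDK18, which include those activated by cyclin Y at the membrane, held 2 of the 4 lower genes. Cdk14 (chromosome 5, 4803391 to 5420312), a cyclin Y partner that acts in WNT signalling, stood at 27.4 TPM in wild type against 9.57 TPM in the labelled knockout, for a log2 ratio of -1.43. It was the only member at least 2-fold lower as deposited and under each of the 3 rescalings. Cdk17 (chromosome 10, 93160875 to 93267071) stood at 44.2 and 18.5 TPM, for a log2 ratio of -1.21 that lay between -0.93 and -0.83 after rescaling. Their relative Cdk16, a cyclin Y partner required for normal sperm formation in the mouse, stood at 8.40 and 14.8 TPM. Cdk17 transcripts were 5.25-fold and Cdk14 transcripts 3.26-fold those of Cdk16 in wild type, against 1.25-fold and 0.647 in the labelled knockout. Ccny itself stood at 43.7 and 38.0 TPM, Cdk15 at 1.65 and 2.42 TPM, and Cdk18 at 0.786 and 0.808 TPM, below the filter in both libraries. Cdk16 is the only member on the X chromosome, where the median log2 ratio was 1.30 over 620 protein-coding genes. The log2 ratio of Cdk16, 0.75, was above that of 28.9% of these X-linked genes and of 75.3% of all protein-coding genes.

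Cdk5 and Cdk20 went opposite ways. Cdk5 (chromosome 5, 24418241 to 24423530), a kinase best known from neurons that is activated by p35 rather than by a cyclin, stood at 1.97 TPM in wild type against 9.79 TPM in the labelled knockout, for a log2 ratio of 1.86. Its activator genes were low in both libraries, with Cdk5r1 at 0.110 and 0.876 TPM and Cdk5r2 listed at 0 in wild type and at 0.0854 TPM in the labelled knockout. Cdk20 (chromosome 13, 64432314 to 64441773), a kinase linked to primary cilia, stood at 58.6 and 24.9 TPM, for a log2 ratio of -1.20 that lay between -0.92 and -0.81 after rescaling. An antisense gene whose exons overlap those of Cdk20, 1700015C15Rik, stood at 43.5 and 11.3 TPM. The libraries were strand-specific, but whether the quantification used strand is not stated in the sources used here, so reads of the pair may not be separated. All 4 lower members, Cdk14, Cdk17, Cdk20 and Ccnk, were lower in the library with less spermatid marker RNA (3036 TPM in wild type, 120 TPM in the labelled knockout), and the part of spermatid RNA in their values was not tested.

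Both G-type cyclins were higher in the labelled knockout. Ccng1 (chromosome 11, 40748552 to 40755311), a transcriptional target of p53, stood at 1.58 TPM in wild type against 10.2 TPM in the labelled knockout. Its log2 ratio of 2.12, above that of 96.1% of protein-coding genes, was the largest of the 37 genes at a pseudocount of 1 TPM. Ccnd2 led at a pseudocount of 0.1 TPM (2.997, with Ccng1 at 2.62) and Cdk4 at 5 TPM (1.76, with Ccng1 at 1.21). Ccng2 (chromosome 5, 93267257 to 93276231), which slows the cell cycle, stood at 2.83 and 9.49 TPM, for a log2 ratio of 1.45 that was 0.89 at a pseudocount of 5 TPM. Ccni, which resembles the G-type cyclins and was the most abundant member in both libraries, stood at 205 and 168 TPM. Ccno (chromosome 13, 112987802 to 112990777), required in multiciliated cells for making centrioles, stood at 0.938 and 5.24 TPM, for a log2 ratio of 1.69. Ccnf, the substrate-binding subunit of an SCF ubiquitin ligase, stood at 6.96 and 5.67 TPM and Ccnj at 1.32 and 1.38 TPM. The labelled knockout also held more RNA of Sertoli, Leydig, macrophage and spermatogonia markers, with the sums given above, and their part was not tested.

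The wild-type level is the denominator of the ratio, so the following split by it describes the genes and is not a separate result. The 10 higher genes had a wild-type median of 2.16 TPM, and 7 of them were under 3 TPM there. The exceptions were Ccne2 (43.3 TPM), Cdk4 (12.3 TPM) and Ccnt2 (9.83 TPM). The 4 lower genes had a wild-type median of 51.4 TPM and none was under 27.4 TPM. The same split ran through all protein-coding genes. Of those passing the filter and under 10 TPM in wild type, 33.1% were higher and 8.36% lower, beside 8 higher and 0 lower among 15 members. These 15 include Cdk18, which did not pass the filter. Of those at 10 TPM or more, 3.91% were higher and 24.9% lower, beside 2 higher and 4 lower among 22 members. Levels of the 37 genes in one library followed those in the other with Spearman's rho of 0.84 across genes, which are not independent replicates, and 0.84 for all protein-coding genes passing the filter. Gene G+C content had a rho of 0.11 with the log2 ratio over the 36 genes, and gene length one of -0.31, against 0.0089 and 0.047 over all protein-coding genes.

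Regulators of these kinases were described from lists of related genes. Of 8 CDK inhibitor genes, 3 (37.5%) were higher and 2 (25.0%) lower, beside 18.7% and 16.5% of all protein-coding genes. All 3 Cip/Kip genes, whose proteins inhibit CDKs bound to cyclins, were higher: Cdkn1c at 1.36 TPM in wild type against 17.3 TPM in the labelled knockout, Cdkn1a, a p53 target, at 1.75 and 6.09 TPM, and Cdkn1b at 0.699 and 3.24 TPM. Cdkn1b passed the filter through the labelled knockout alone, and at a pseudocount of 5 TPM Cdkn1c stayed higher while Cdkn1a (0.72) and Cdkn1b (0.53) did not reach a log2 ratio of 1. The lower ones were Cdkn2c, an INK4 inhibitor of CDK4 and CDK6, at 153 and 58.9 TPM and the phosphatase gene Cdkn3 at 168 and 67.5 TPM. Neither was 2-fold lower under 2 of the 3 rescalings, where the log2 ratio of Cdkn2c was -0.9998 and -0.96 and that of Cdkn3 -0.94 and -0.90. The other INK4 genes were within 2-fold, with Cdkn2d at 98.9 and 56.6 TPM, Cdkn2a at 1.93 and 3.55 TPM and Cdkn2b at 4.31 and 3.86 TPM. Cdkn2c thus stood at 12.5-fold the level of its target Cdk4 in wild type and at 1.10-fold in the labelled knockout. Leydig and Sertoli markers were higher in the library where the Cip/Kip genes were, spermatid markers in the library where Cdkn2c and Cdkn3 were, and their part was not tested.

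Of 20 genes of the RB, E2F and DREAM group, which turn cell cycle genes on and off, 19 reached 1 TPM, 5 (26.3%) were higher and 3 (15.8%) lower, shares near the 18.7% and 16.5% of all protein-coding genes. The higher ones included Tfdp2, an E2F partner, at 4.28 TPM in wild type against 20.1 TPM in the labelled knockout, E2f2 at 0.179 and 2.12 TPM, E2f1 at 0.493 and 2.71 TPM, and E2f5 at 3.45 and 9.16 TPM. The lower ones were E2f8, an E2F repressor, at 14.9 and 4.45 TPM, the pocket protein gene Rbl2 at 19.4 and 7.14 TPM, and Foxm1, a driver of G2 and mitotic genes, at 83.1 and 35.4 TPM. Rb1 stood at 16.3 and 20.9 TPM. The fifth higher gene, E2f6, stood at 2.88 and 6.83 TPM. E2f1 and E2f2 passed the filter through the labelled knockout alone, and of the 5 higher genes 1, Tfdp2, was higher at a pseudocount of 5 TPM. Foxm1 was not 2-fold lower under any of the 3 rescalings (-0.92 to -0.82) and Rbl2 not under 1 of them (-0.98). The markers of other testis cells given above moved with these genes and those of the next list, and their part was not tested.

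Of 25 binding partners, 21 reached 1 TPM, with 6 (28.6%) higher and 1 (4.76%) lower, beside 18.7% and 16.5% of all protein-coding genes. Cdk2ap2 stood at 0.857 TPM in wild type against 9.20 TPM in the labelled knockout, the X-linked Mediator gene Med12 at 0.919 and 7.90 TPM, Cks1b, a small CDK-binding protein, at 7.23 and 23.4 TPM, and Cables2 at 10.5 and 33.2 TPM. Med12l and Med13l were the remaining higher genes, at 0.557 and 2.33 TPM and at 9.13 and 19.7 TPM. Cdk2ap2, Med12 and Med12l passed the filter through the labelled knockout alone, and Med12l and Med13l were not higher at a pseudocount of 5 TPM. Cdk5rap3 was the lower one, at 103 and 49.9 TPM, and was not 2-fold lower under any rescaling (-0.74 to -0.63) or at 5 TPM (-0.97). Of the CDK-like kinase genes, Cdkl1 (29.6 and 10.2 TPM) and Cdkl4 (43.0 and 17.4 TPM) were lower, Cdkl4 under none of the rescalings (-0.98 to -0.88). Among 6 kinases and phosphatases that set inhibitory CDK phosphorylation, only Wee2 passed 2-fold, lower at 2.73 and 0.691 TPM. Wee2 passed the filter through wild type alone. That is 0% of the list higher and 16.7% lower, beside 18.7% and 16.5% of all protein-coding genes. Among 11 ubiquitin ligase parts, Skp2 (9.09% of the list) was lower at 11.3 and 3.42 TPM. Fbxo31 (9.09%) was higher at 1.40 and 5.09 TPM. Of all protein-coding genes, 16.5% were lower and 18.7% higher. Wee2, Skp2 and Fbxo31 did not reach 2-fold at a pseudocount of 5 TPM (-0.44, -0.95 and 0.66).

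**Figure D3:**
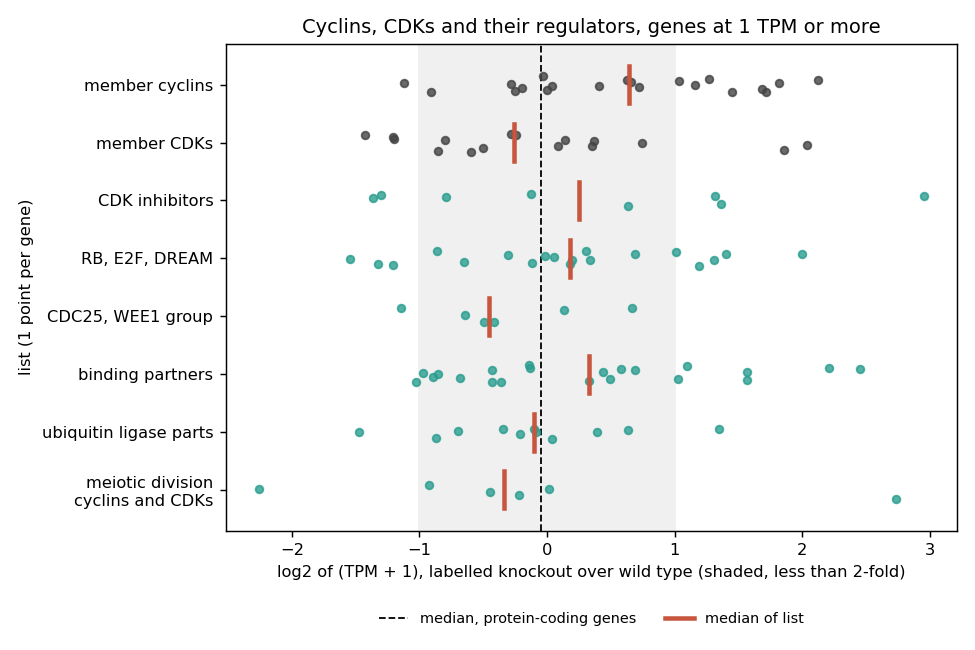
Log2 ratios of (TPM + 1), labelled knockout over wild type, for the cyclins and CDKs (dark points) and for related genes by list (green points), each point 1 gene that reached 1 TPM in either library. Red bars are list medians, 0.64 for the cyclins and -0.26 for the CDKs, and the dashed line is the protein-coding median of -0.05. The cyclins had the lower wild-type median (12.3 TPM, against 30.8 TPM for the CDKs), and genes low in wild type were more often higher.

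The 6 meiotic division genes that the rule leaves out differed from one another. Ccna1 (186 and 38.0 TPM) was lower and Ccnb3 (0.279 and 7.54 TPM) higher, while Ccnb1 (83.3 and 43.4 TPM), Ccnb2 (107 and 78.4 TPM), Cdk1 (71.7 and 72.6 TPM) and Cdk2 (75.3 and 64.4 TPM) stayed within 2-fold. That is 16.7% higher and 16.7% lower, shares near the 18.7% and 16.5% of all protein-coding genes. Ccnb3 passed the filter through the labelled knockout alone. It lies on the X chromosome, where the median log2 ratio was 1.30.

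TPM is a share of a total, and protein-coding genes held 62.6% of that total in wild type against 49.0% in the labelled knockout. Rescaling the libraries moved the protein-coding median by 0.28 to 0.41 on the log2 scale. All 10 higher members were at least 2-fold higher under each of the 4 scalings, but the rescalings raise the labelled knockout relative to wild type, so this is no sign of stability. The share of all protein-coding genes that were higher rose with them, to between 24.3% and 28.1%. Of the 4 lower members 1, Cdk14, was lower under all 4. The share of all protein-coding genes that were lower fell to between 9.78% and 11.1%. Under at least 1 rescaling Cdk16, Ccnh, Ccnt1 and Ccnl1 also passed 2-fold. Relative to the protein-coding median, the median of the members lay 0.16 higher as deposited and between 0.12 and 0.17 higher after rescaling.

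**Figure D4:**
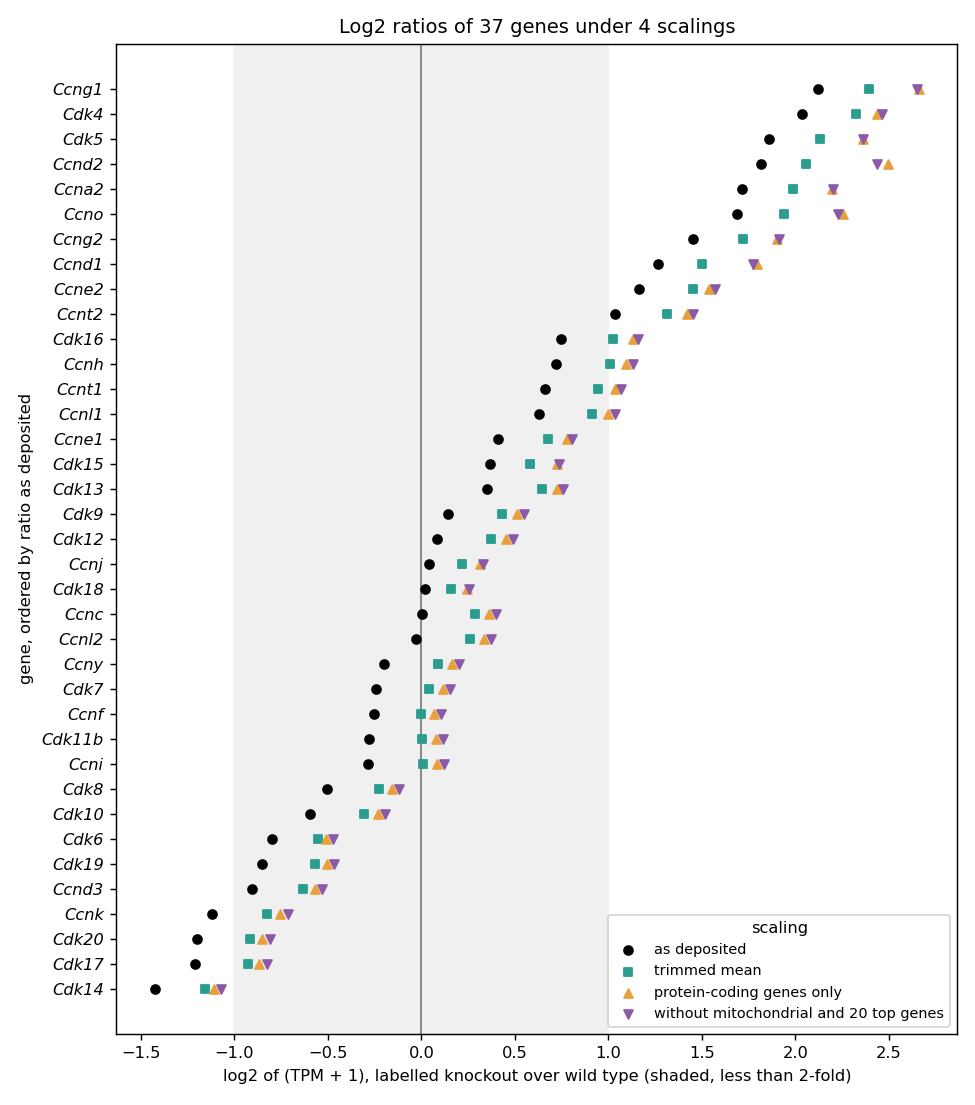
Log2 ratios of the 37 genes under 4 scalings of the libraries, as deposited (circles), by the trimmed mean (squares), over protein-coding genes only (triangles up) and without mitochondrial and the 20 most abundant genes (triangles down). The 10 genes at the top lie to the right of the shaded 2-fold band under every scaling, and of the 4 at the bottom only Cdk14 stays to its left.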

How the data were processed

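RNA of 2 libraries, 1 per genotype, was analysed. Per the labels' protocols, total RNA was DNase-treated, depleted of ribosomal RNA and made into strand-specific libraries. The authors deposited TPM per gene, and each column sums to 1000000 over 53801 genes. The submitters' processing notes name kallisto 0.43.1, TopHat, GSNAP and bcl2fastq 2.19.1 with the build mm10, and no role or order for them. Per the file headers, the deposited table also gives gene length in bases and G+C content in percent. Start and end of 35 of the 37 genes equal GENCODE M21 (Ccnf and Ccny differ). Symbols listed more than once took the gene with the higher mean TPM.

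Computed here were log2 ratios with a pseudocount of 1 TPM, counts at 2-fold among genes that reached 1 TPM in either library, ratios within a library, and motif matches. The step that counts genes was run on simulated data, with 4-fold changes planted in genes at 20 TPM or more in wild type. That setting does not cover calls near 2-fold or in genes at low TPM. Alternatives were pseudocounts of 0.1 and 5 TPM, 3 rescalings (trimmed mean with 30% trimmed at each end, protein-coding genes only, dropping the 20 most abundant and all mitochondrial genes), absence of a filter, a filter of 5 TPM, and counts at 1.5-fold and 4-fold. With 1 library per group no test was run. The named genes are every member, each related gene past 2-fold up to 4 per direction and list, and others named for their role after their values were seen. One related gene and the summary of its list are not reported here. The members and lists were chosen with earlier results of these data known. Python 3.11.15, NumPy 2.4.6, pandas 2.3.3, SciPy 1.17.1 and Matplotlib 3.10.9 were used.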

Additional observations from a re-analysis of the deposited data

How the results depend on the processing

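The count of higher members was 10 and of lower members 4. With a pseudocount of 5 TPM the higher count was 5 (Ccnd1, Ccnd2, Ccng2, Ccno and Ccnt2 were lost), beside 6.87% of all protein-coding genes, because low genes weigh less there. At 4-fold the counts were 2 (5.56%, beside 4.68% of all protein-coding genes) and 0 (beside 3.28%). At 1.5-fold 14 members (38.9%, beside 29.2%) were higher and 8 (22.2%, beside 28.8%) lower. The higher count was 12, 13 and 14 under the rescalings, where 24.3%, 27.7% and 28.1% of all protein-coding genes were higher. The lower count was 1 under each of the 3 rescalings, 2.78%, 2.70% and 2.70% of the members. Of all protein-coding genes, 11.1%, 10.3% and 9.78% were lower there. The rescalings raise the labelled knockout relative to wild type, which works toward fewer lower genes. The median log2 ratio of the members was 0.11 as deposited and 0.40 by the trimmed mean. It was 0.45 over protein-coding genes and 0.49 without mitochondrial and the 20 most abundant genes. The signs of 6 members within 2-fold (Ccni, Cdk11b, Ccnf, Cdk7, Ccny and Ccnl2) turned under at least 1 rescaling, and no member past 2-fold changed sign under these alternatives. With a filter of 5 TPM the counts were 8 (25.0%) and 4 (12.5%) and the median 0.044, beside 16.5% and 20.3% of all protein-coding genes. Without a filter they were 10 (27.0%) and 4 (10.8%) with a median of 0.086, beside 12.7% and 11.2%. A pseudocount of 0.1 TPM gave 10 (27.8%) and 4 (11.1%) with a median of 0.12, beside 23.9% and 19.8%. No replicate could be left out, and no paired analysis was possible because each genotype has 1 library. Only a minimum number of reads is stated and not the depth reached, so values near or under 1 TPM carry no stated precision.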

Other observations

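A few members lie near each other on a chromosome. Ccni and Ccng2 are separated by 60.8 kb on chromosome 5, and Ccni transcripts were 72.4-fold those of Ccng2 in wild type and 17.7-fold in the labelled knockout. Cdk6 (8.57 and 4.51 TPM) and Cdk14 (27.4 and 9.57 TPM) lie 1272 kb apart on the same chromosome. Cdk11b and Ccnl2, which act together, lie 163 kb apart on chromosome 4 and stood at 39.5 and 32.3 TPM and at 45.0 and 44.1 TPM.

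Exons of several members overlap exons of a gene on the opposite strand in GENCODE M21. The partner of Ccne2, Ints8, stood at 13.4 TPM in wild type against 35.3 TPM in the labelled knockout, that of Cdk4, Tspan31, at 3.15 and 8.89 TPM, and that of Cdk19, Cdk19os, at 41.4 and 8.33 TPM. The partner of Ccna2, Exosc9, stood at 33.3 and 33.1 TPM, and that of Ccnd1, LTO1, at 13.4 and 14.2 TPM. The partner of Cdk17, Elk3, stood at 1.47 and 0.478 TPM. Of the partners of Ccnd2, 9330179D12Rik stood at 0 and 0.207 TPM and Gm43126 at 0 in both libraries. Further members within 2-fold or below the filter also have such partners. Whether such reads were separated by strand was not tested.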
